A study of Mus musculus with 48 samples.

Results

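The genes described here encode 6 molecules of the vessel wall that bind leukocytes or chemokines, namely Darc, Sele, Selp, Vcam1, Icam1 and Icam2. Every probe of the Agilent mouse array that carries one of these names in the scanner files was taken, which gave 7 probes of the 55681 on the array, since Vcam1 has 2. Darc is the array's older name for Ackr1. The genes were chosen by name when earlier results of the same arrays were known, so their differences between IL1B and PBS, and the differences between those responses, are given as a description. The calls made on them use limma's adjusted p, but p-values are printed only for comparisons among PBS samples.

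Leukocytes leave the blood in steps. Selectins on activated endothelium, E-selectin from Sele and P-selectin from Selp, slow the cells by binding carbohydrate ligands such as PSGL-1, and the immunoglobulin family members ICAM-1, ICAM-2 and VCAM-1 then hold them through integrins. ACKR1, the product of Darc, binds chemokines without signalling through G proteins and is known from venules and red cells. Inflammatory cytokines act on the endothelium through NF-kappaB to raise Sele, Selp, Vcam1 and Icam1, whereas Icam2 is made by resting endothelium, platelets and leukocytes. Icam1 is also made by activated microglia and other myeloid cells, and Vcam1 by pericytes, astrocytes and macrophages.

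The samples came from brains of male mouse pups, of the strain swiss in the labels and OF1 in the study's methods, which also state that brains were pooled. Pups received PBS or IL1B, an inflammatory cytokine, at 10 ng/g into the abdomen from postnatal day (P) 1 to P5, and cells were taken at P5, 2 h after the last injection by the labels and later by the methods, or at P10, 5 days after it. O4+ cells (oligodendrocyte precursors and immature oligodendrocytes) were taken first with magnetic beads, and CD11B+ cells (microglia and other myeloid cells) from what remained, so that a brain could give both fractions. The 8 groups were thus PBS and IL1B at P5 and at P10 in each fraction, with 6 samples per group and 1 array per sample, 48 arrays in all. Nothing in the labels ties a sample to single animals beyond its replicate number, and the p-values measure the spread between these samples. Values are log2 of the background-subtracted signal after quantile normalization over the 24 arrays of a fraction, unless 48 arrays are named. A probe was called where the adjusted p from limma was under 0.05 and the ratio of the group medians was over 1.5 in either direction.

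Between 52.9% and 65.4% of probes were well above background on an array. All 10 oligodendrocyte lineage markers and all 10 microglia markers were well above background on every array of both fractions, with list means of 14.04 to 15.41 and 12.60 to 15.07 in O4+ cells against 9.32 to 11.54 and 16.39 to 16.98 in CD11B+ cells. Endothelial markers were present in both fractions. Of 15, all were above background on every O4+ array, and Emcn and Erg were the only ones missing on some CD11B+ arrays. A single array stood apart from its label. The CD11B+ P10 array labelled PBS replicate 6 had a higher correlation with the mean of the 6 IL1B arrays of its age (r = 0.997) than with that of the other 5 PBS arrays (r = 0.992, over 24540 probes detected on all arrays), and it alone of the 48 was closer to the other treatment. Its mean over 8 neutrophil and monocyte markers was 11.82, beside 9.84 to 10.17 on the other PBS arrays. Results in CD11B+ cells at P10 that rest on it are given with and without it. Without it, 1415 probes (2.54% of all) were called higher and 1323 (2.38%) lower after IL1B in CD11B+ cells at P10, in place of 605 and 604. In these bulk samples, fewer cells of a type and less RNA per cell cannot be told apart.

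Positions are those of the mm9 build as the scanner files give them. The Darc probe is at chr1:175262282-175262341 on the minus strand, and those of Sele and Selp are at chr1:165987726-165987785 and chr1:166079660-166079719 on the plus strand. The Vcam1 probes are at chr3:115813216-115813275 and chr3:115828953-115829012 on the minus strand, of which the first was the brighter and stands for the gene. Icam1 was read at chr9:20832290-20832349 on the plus strand and Icam2 at chr11:106238971-106239030 on the minus strand. The Selp probe was spotted 10 times on each array and the others once.

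Promoter sequences of RefSeq (GRCm38.p6) were matched for 4 of the 6 genes and are shown because NF-kappaB is the known regulator of this family. Each line gives the 250 bases before the transcription start, 5′ to 3′ on the gene's strand, with capitals at matches on either strand to GGNNNTTCC, an NF-kappaB type motif, or to TATAAA. They are at chr1:173333504-173333753 (minus strand) for Darc, chr1:164047984-164048233 for Sele, chr1:164115014-164115263 for Selp and chr9:21015690-21015939 for Icam1 (all plus strand). Vcam1 and Icam2 are named only.
Darc: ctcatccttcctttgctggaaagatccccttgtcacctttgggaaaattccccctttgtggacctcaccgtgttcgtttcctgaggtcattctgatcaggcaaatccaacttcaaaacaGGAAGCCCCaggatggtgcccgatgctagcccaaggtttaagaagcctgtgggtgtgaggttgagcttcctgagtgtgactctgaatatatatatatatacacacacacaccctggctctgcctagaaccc
Sele: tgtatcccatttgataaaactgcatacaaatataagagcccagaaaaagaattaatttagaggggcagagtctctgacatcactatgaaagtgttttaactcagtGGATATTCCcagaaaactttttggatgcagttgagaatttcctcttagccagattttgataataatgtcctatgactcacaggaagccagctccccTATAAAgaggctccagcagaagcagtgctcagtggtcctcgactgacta
Selp: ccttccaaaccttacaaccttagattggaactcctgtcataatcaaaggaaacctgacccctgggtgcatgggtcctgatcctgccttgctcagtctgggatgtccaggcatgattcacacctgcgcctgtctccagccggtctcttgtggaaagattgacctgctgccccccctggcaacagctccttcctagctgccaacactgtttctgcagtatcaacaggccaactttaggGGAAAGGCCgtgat
Icam1: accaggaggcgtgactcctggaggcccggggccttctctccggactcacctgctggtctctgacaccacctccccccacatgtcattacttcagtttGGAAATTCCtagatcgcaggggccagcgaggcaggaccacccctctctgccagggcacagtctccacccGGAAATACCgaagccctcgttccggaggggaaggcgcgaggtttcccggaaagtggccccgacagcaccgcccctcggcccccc
All 4 promoters held GGNNNTTCC, which 15.7% of the 32851 mouse promoters of the table hold in the same 250 bases. The matches started 131 bases before the start of Darc, 145 before that of Sele and 14 before that of Selp, and 153 and 84 before that of Icam1, where the former was matched on both strands. TATAAA, held by 12.4% of promoters, was found in that of Sele only among the 4. No binding was measured on these arrays.

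At P5, IL1B samples had more signal than PBS samples for Darc, Sele, Selp and Vcam1 in both fractions. In O4+ cells 5 of the 6 genes were called higher and none lower, where the shares of all probes were 3.43% higher and 1.49% lower. CD11B+ cells had 4 of the 6 called higher and none lower, beside 4.05% and 5.25% of all probes. Icam1 was called in O4+ cells alone, and Icam2, the member of resting endothelium, was called in neither fraction. As the genes were chosen with these contrasts known, the shares are set side by side only.

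Darc was well above background on all 48 arrays, so its changes could be measured in every group. In CD11B+ cells at P5 its signal was 5.95 to 7.33 (median 6.64) on the PBS arrays and 9.97 to 11.32 (median 10.65) on the IL1B arrays. The groups were thus far apart, with a log2 difference of 4.01 ± 0.27 (SE, n = 6 per group) and a ratio of medians of 16.3. In O4+ cells the PBS arrays lay within 11.02 to 11.20 (median 11.07) and the IL1B arrays within 12.06 to 13.17 (median 12.72). This difference was 1.61 ± 0.15, a ratio of 3.14, again without overlap. On the slides that held both groups it was 1.87 (4 PBS and 1 IL1B arrays) and 1.48 (2 and 1) in O4+ cells and 3.91 (1 and 4) in CD11B+ cells. Each of these values rests on 1 array of a treatment. The remaining P5 arrays were on slides without the other treatment of their fraction.

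Selp, which encodes the selectin of Weibel-Palade bodies and platelet granules, went from background to clear signal in both fractions. In O4+ cells at P5 the PBS arrays read 2.15 to 3.15 (median 2.70), none above background, and the IL1B arrays 6.38 to 7.56 (median 7.37), all above it. The signal was therefore at least 11.8-fold higher after IL1B, a limit set by the lowest signal that counted as above background on each PBS array. In CD11B+ cells it was 2.35 to 3.92 (median 2.67) on PBS arrays, of which 1 was above background, and 6.24 to 7.70 (median 7.55) on all 6 IL1B arrays. Here the log2 difference was 4.46 ± 0.31, with no overlap. The 10 spots of the probe agreed closely wherever it was bright, with an SD over spots of 0.071 to 0.138 on the O4+ IL1B arrays and 0.080 to 0.118 on the CD11B+ ones. Within slides, again with 1 array of a treatment on each, the differences of measured values were 5.08 and 4.45 in O4+ cells and 4.76 in CD11B+ cells.

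Sele encodes the selectin made only by activated endothelium. Its probe was dimmer. O4+ PBS arrays at P5 read 1.46 to 1.58 (median 1.48) and IL1B arrays 3.99 to 5.52 (median 5.09), and the latter were all above background. The rise was at least 2.46-fold. In CD11B+ cells the PBS arrays read 1.51 to 2.40 (median 1.51), none above background, and the IL1B arrays 1.73 to 4.21 (median 3.33), with 3 of 6 above it. These groups overlapped, and no fold is given because the limit from the background came to less than 1. The call of Sele in CD11B+ cells was lost with normexp background correction, where the log2 difference of measured values was 0.25, and with slide as a block, where it was 1.79.

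Vcam1, the endothelial ligand of the integrin VLA-4, changed more in CD11B+ than in O4+ samples. Its brighter probe read 10.48 to 11.55 (median 10.65) on CD11B+ PBS arrays and 12.93 to 13.42 (median 13.10) on IL1B arrays at P5. That is a log2 difference of 2.37 ± 0.17 and a ratio of 5.43. The dimmer probe gave 2.47 ± 0.16, a ratio of 5.86. O4+ PBS arrays read 12.19 to 12.69 (median 12.48) and IL1B arrays 12.85 to 13.57 (median 13.16), which made 0.70 ± 0.12 with the brighter probe and 1.09 ± 0.10 with the dimmer. None of these groups overlapped. Astrocytes and mural cells can also make Vcam1. Of 6 astrocyte markers, 1 was called higher in CD11B+ cells and none in O4+ cells at P5, with list means of 7.77 to 10.31 on PBS and 7.89 to 8.54 on IL1B arrays in CD11B+ cells and of 8.99 to 9.97 and 8.78 to 10.66 in O4+ cells. Of 8 mural markers, 1 was called higher and 3 lower in CD11B+ cells (means of 7.49 to 9.30 and 7.24 to 7.73), and none in O4+ cells (8.55 to 9.77 and 7.67 to 9.42). Their part in the Vcam1 result was not tested. The O4+ call of the brighter probe was lost with the deposited values, at a difference of 0.57, and with slide as a block, at 0.64.

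Icam1, which encodes the ligand of the integrins LFA-1 and Mac-1, followed the opposite order. In O4+ cells at P5 it read 8.15 to 8.86 (median 8.52) on PBS arrays and 10.07 to 10.77 (median 10.50) on IL1B arrays. The difference was 1.93 ± 0.13, a ratio of 3.93, and the groups did not overlap. CD11B+ arrays lay at 11.13 to 11.38 (median 11.30) for PBS, while IL1B samples lay at 11.38 to 11.85 (median 11.69), a difference of 0.37 ± 0.09 whose ratio of 1.31 was under the threshold. Microglia markers moved with Icam1 in O4+ cells at P5. Of 10, 8 were called higher and none lower, and their list mean went from 13.47 to 14.07 on PBS arrays to 14.71 to 15.07 on IL1B arrays. Their part in the Icam1 result was not tested.

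Icam2 was the member that did not pass. O4+ arrays at P5 spanned 11.88 to 13.17 (median 12.49) under PBS, and the IL1B samples 11.85 to 12.73 (median 12.13). The difference of -0.37 ± 0.25 had a 95% interval of -0.91 to 0.17. In CD11B+ cells it was -0.50 ± 0.16, where PBS arrays spanned 11.15 to 11.97 (median 11.62) and IL1B arrays 10.77 to 11.36 (median 11.11), with a signed ratio of -1.42, under the threshold, where a negative sign marks a fall. Without PBS replicate 1 (-0.58) or 3 (-0.57) it was called lower. Within slides the Icam2 difference was -0.55 (4 PBS and 1 IL1B arrays) and 0.03 (2 and 1) in O4+ cells. In CD11B+ cells it was -0.80 (1 and 4).

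**Figure D1:**
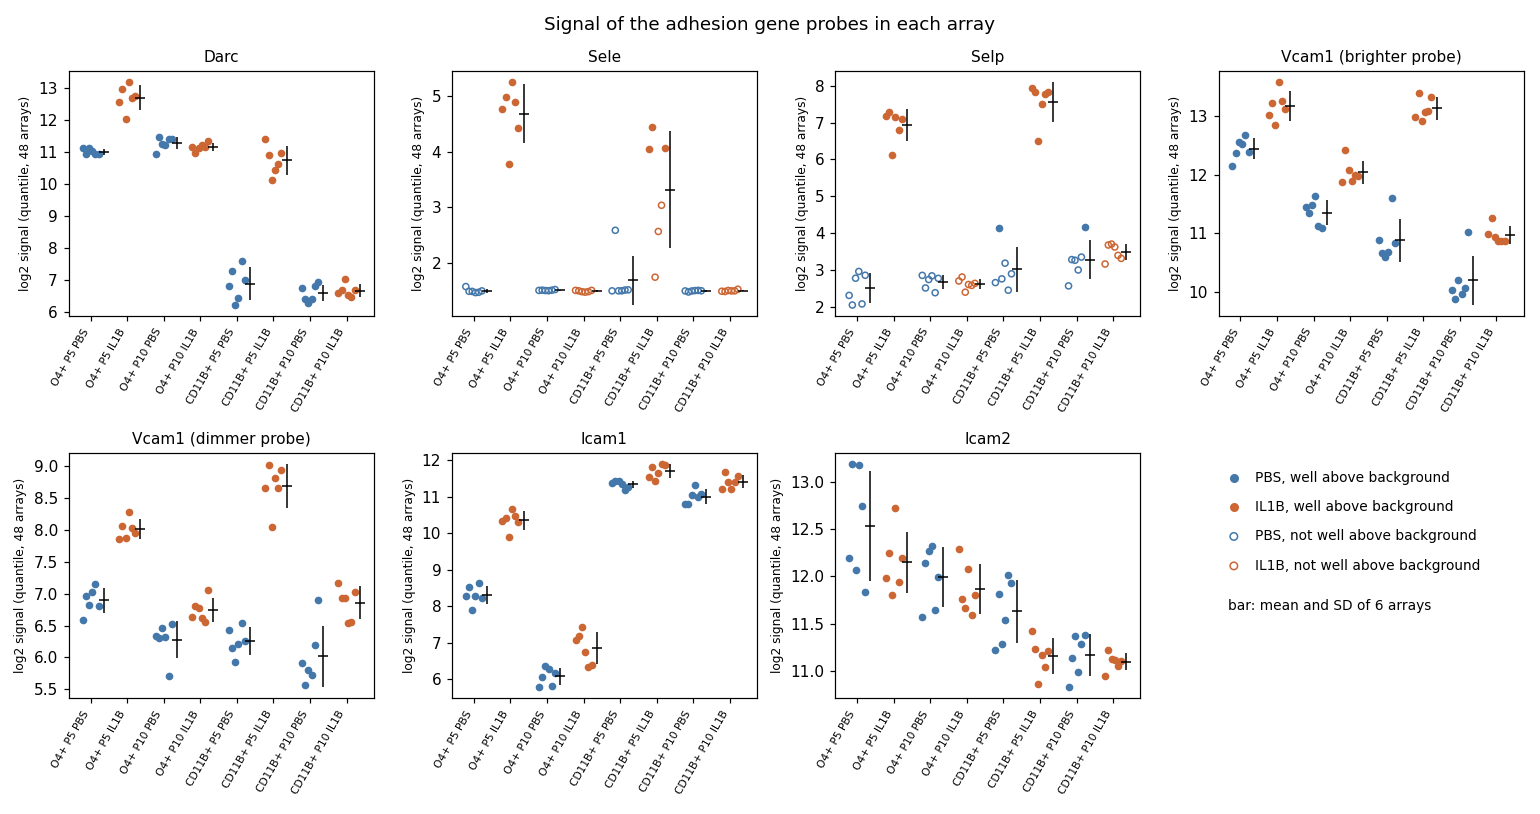
The log2 signal of the 7 probes (y axis, quantile-normalized over 48 arrays) in each of the 8 groups (x axis); points are arrays, open where the probe was not well above background, and bars give mean and SD of 6 arrays. Darc, Selp and Vcam1 are high on all P5 IL1B arrays of both fractions relative to PBS, Sele is at background on all arrays other than those of P5 IL1B and Selp on all but 2 of them (1 CD11B+ PBS array at each age), and the single high Vcam1 point among the CD11B+ P10 PBS arrays is replicate 6.

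By P10, 5 days after the last injection, Darc, Sele and Selp were called in neither fraction. In each fraction 1 of the 6 genes was called higher and none lower, Icam1 in O4+ cells and Vcam1 in CD11B+ cells. The shares over all probes were 2.49% higher and 1.42% lower in O4+ cells and 1.09% and 1.08% in CD11B+ cells.

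Darc in O4+ cells at P10 lay at 11.03 to 11.52 (median 11.39) for PBS, while IL1B samples lay at 11.06 to 11.40 (median 11.22), and the 95% interval of the difference was -0.31 to 0.08. CD11B+ arrays read 6.02 to 6.66 (median 6.32) and 6.20 to 6.77 (median 6.38), with an interval of -0.21 to 0.35. Sele was not above background on any P10 array, and Selp on 1 alone, the CD11B+ PBS replicate 6 array, at 3.95. Icam2 differed by -0.12 ± 0.16 in O4+ cells and by -0.07 ± 0.10 in CD11B+ cells.

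Icam1 rose in O4+ cells at P10, from 6.04 to 6.62 (median 6.38) to 6.59 to 7.68 (median 7.17). The difference was 0.78 ± 0.19, a ratio of 1.74, with 5 of 6 IL1B arrays above all PBS arrays. On the slides that held both groups it was 1.06 (5 PBS and 2 IL1B arrays) and 0.24 (1 of each). Its call was lost with normexp, at 0.51, with slide as a block, at 0.85, and without PBS replicate 1 (0.72), 2 (0.77) or 5 (0.73) or IL1B replicate 2 (0.71). Microglia markers moved here too, with 5 of 10 called higher. CD11B+ cells gave 0.43 ± 0.11 for Icam1 at P10, not called.

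For Vcam1 the O4+ groups at P10 were still apart, with PBS samples at 11.16 to 11.70 (median 11.46) and IL1B samples at 11.92 to 12.44 (median 12.03). The difference of 0.66 ± 0.11 gave a ratio of 1.48, just under the threshold, and the dimmer probe gave 0.46 ± 0.13. The brighter probe was called without PBS replicate 1 (0.68), 3 (0.68) or 4 (0.72). In CD11B+ cells the brighter probe had PBS samples at 9.71 to 10.94 (median 9.89) and IL1B samples at 10.76 to 11.19 (median 10.81), and was called at 0.83 ± 0.19, a ratio of 1.89. The groups overlapped through the array labelled PBS replicate 6 alone. Without it the PBS arrays read 9.71 to 10.05, every IL1B array lay above them, the difference was 1.01 ± 0.09 and the gene was called. The call was lost in 9 of the 12 fits that each left out 1 array, at differences of 0.76 to 0.85, and was kept without PBS replicate 6 or IL1B replicate 4 or 6. With slide as a block the difference was 0.47 and not called, and replicate 6 is on the slide that carried both groups. Astrocyte markers moved with Vcam1 in O4+ cells at P10. Of 6, 3 were called higher, with list means of 9.21 to 9.58 on PBS and 9.70 to 10.17 on IL1B arrays. In CD11B+ cells 1 was, with means of 8.15 to 9.50 and 8.62 to 9.35, and 3 were without PBS replicate 6. Of 8 mural markers none was called in O4+ cells (8.24 to 8.96 and 8.25 to 9.02), and 1 was higher in CD11B+ cells (7.29 to 8.22 and 6.96 to 8.04), or 2 without that array. The part of these cells was not tested.

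**Figure D2:**
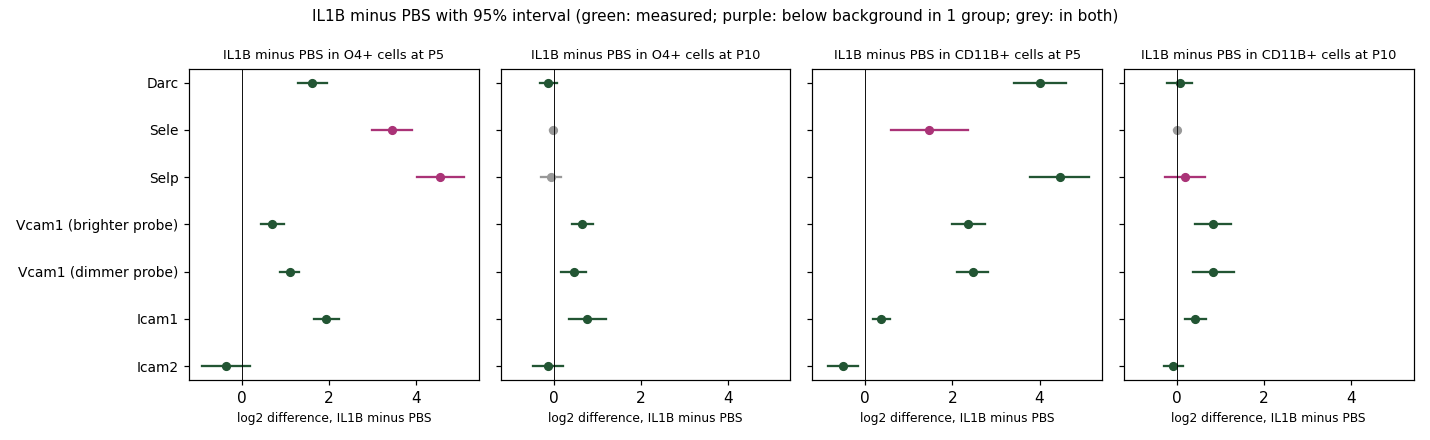
The log2 difference between IL1B and PBS (x axis) for each probe (y axis) in O4+ and CD11B+ cells at P5 and P10, with 95% intervals from limma; colour marks whether the probe was above background. Differences of Darc at P5 are 1.61 in O4+ and 4.01 in CD11B+ cells, those of Sele and Selp rest on PBS arrays at or near background and have no exact size, and at P10 only Vcam1 and Icam1 have intervals that lie above 0.

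The responses were next set against each other by age and by fraction, as differences of differences with their standard errors. In O4+ cells the response of Darc was smaller at P10 than at P5, with a difference (P10 minus P5) of -1.72 ± 0.18, and that of Icam1 with -1.16 ± 0.24. The brighter Vcam1 probe gave -0.03 ± 0.17 and the dimmer -0.63 ± 0.17, so the probes disagreed on whether the Vcam1 response in O4+ cells had shrunk. In CD11B+ cells the response of Darc changed by -3.94 ± 0.31 and that of Vcam1 by -1.54 ± 0.26, and without PBS replicate 6 by -3.87 and -1.36. Icam1 in CD11B+ cells gave 0.06 ± 0.15. For Sele and Selp, at background at P10, the differences of measured values were -3.46 and -4.61 in O4+ cells and -1.47 and -4.26 in CD11B+ cells. In each fraction 4 of 6 genes were called smaller at P10, where 5.32% of all probes were in O4+ cells and 6.3% in CD11B+ cells.

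Between fractions at P5, the Darc response was larger in CD11B+ cells by 2.17 ± 0.32 and that of Vcam1 by 1.53 ± 0.21 (dimmer probe 1.31 ± 0.19). The Icam1 response was smaller there, at -1.69 ± 0.17. The measured values of Selp differed by 0.11 ± 0.40, with a 95% interval of -0.71 to 0.94, but the probe was above background on 0 of 6 O4+ and 1 of 6 CD11B+ PBS arrays. Sele gave -1.55 ± 0.50, with both PBS groups at background, and its call was lost in 20 of the 24 fits that each left out 1 array. These comparisons called 2 of 6 genes larger and 2 smaller in CD11B+ cells, where 3.78% of all probes were called larger and 6.93% smaller. At P10 none of the 6 was called between fractions, where 3.65% of all probes were called larger and 3.92% smaller in CD11B+ cells. The differences were -0.38 ± 0.23 for Icam1 and 0.38 ± 0.26 for the dimmer Vcam1 probe. Without PBS replicate 6 of the CD11B+ cells none was called either, with Icam1 at -0.36 ± 0.24 and Vcam1 at 0.25 ± 0.15.

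Fractions were compared without IL1B in the PBS samples, quantile-normalized over 48 arrays. Darc and Icam1 stood at opposite ends. Darc was lower in CD11B+ than in O4+ cells, with a log2 difference of -4.12 ± 0.20 at P5 (limma, adjusted p = 3.45e-09), and -4.68 ± 0.13 at P10 (adjusted p = 2.36e-11). Icam1 was higher in CD11B+ cells by 3.04 ± 0.11 at P5 (adjusted p = 2.16e-10) and by 4.94 ± 0.12 at P10 (adjusted p = 1.27e-11). No array of one fraction overlapped the other for either gene at either age. The PBS samples of the fractions share no slide at P10, so slide and fraction cannot be told apart there. At P5 only O4+ replicates 3 and 6 and CD11B+ replicate 6 share a slide.

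Vcam1 was lower in CD11B+ cells, by -1.57 ± 0.16 at P5 (limma, adjusted p = 3.44e-06) and -1.16 ± 0.18 at P10 (adjusted p = 1.57e-04). Its dimmer probe gave -0.64 ± 0.11 and -0.26 ± 0.22, the latter not called. Icam2 was lower by -0.90 ± 0.26 at P5 (limma, adjusted p = 0.0107) and by -0.83 ± 0.15 at P10 (adjusted p = 5.29e-04). The Icam2 call at P5 was lost with 75th percentile scaling, at -0.46, with the deposited values, at -0.36, with slide as a block, at -0.03, and without O4+ replicate 2 (-0.77), 4 (-0.77) or 5 (-0.86). The same 2 scalings moved the median of all probes in this comparison to 0.35 and 0.45. Sele and Selp were at background in nearly all PBS samples and were not called. At each age the calls in CD11B+ cells were 1 gene up and 3 down, where the shares of all probes were 21.8% higher and 19.8% lower at P5 and 20.2% and 22.2% at P10. Without PBS replicate 6 the P10 counts were again 1 and 3, with Vcam1 at -1.33 and Darc at -4.74.

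Cell type markers differed between the fractions as well. Microglia markers were called higher in CD11B+ cells for 9 of 10 genes at both ages, with medians of 3.00 at P5 and 4.62 at P10 over the list, against medians over all probes of 0.05 and -0.003. Endothelial markers were called lower for 12 of 15 genes at P5 and for 11 at P10, with list medians of -1.13 and -1.002, and Pecam1 alone was called higher, at P10 (0.79). Itgam, the gene of CD11B itself, was called lower in CD11B+ than in O4+ cells at P10, with and without PBS replicate 6. The part of microglia and endothelial cells in the levels of the 6 genes was not tested.

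From P5 to P10 in PBS samples, Icam1 and Vcam1 fell in O4+ cells. Icam1 gave a difference of -2.205 ± 0.13 (limma, adjusted p = 2.79e-07), a signed ratio of -4.42, with all P10 arrays under all P5 arrays. Vcam1 gave -1.05 ± 0.11 (adjusted p = 1.59e-05, signed ratio -2.03), and its dimmer probe -0.61 ± 0.14, a signed ratio of -1.48 that was not called. Darc was 0.25 ± 0.08 higher (limma, adjusted p = 0.0346), under the fold threshold, and Icam2 gave -0.52 ± 0.25 (adjusted p = 0.135). Thus 2 of 6 genes were called lower and none higher, where 8.96% and 7.85% of all probes were. In the same comparison 8 of 10 microglia markers were called lower, with a list median of -1.23, and 9 of 15 endothelial markers, with -0.79, and their part was not tested.

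In PBS CD11B+ cells Vcam1 was lower at P10 by -0.73 ± 0.23 (limma, adjusted p = 0.0447), and without PBS replicate 6 by -0.91 ± 0.18. This call was lost with the deposited values, the methods' equal-variance test, slide or scan day as a random block and both probes averaged, and in 11 of the 12 fits that each left out 1 array, at -0.58 to -0.79. It was kept without PBS replicate 6 at P10. The dimmer probe gave -0.24 ± 0.21. Icam1 gave -0.36 ± 0.09 (limma, adjusted p = 0.0163) with a signed ratio of -1.28, not called. Of the 6 genes 1 was called lower and none higher, where 3.61% and 4.65% of all probes were. P5 and P10 samples share no slide, so slide and age cannot be told apart.

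The levels of each gene over the 8 groups were ordered on the values normalized over 48 arrays. Darc was highest in O4+ cells of IL1B pups at P5 (12.69 ± 0.40, SD), above the range of every other group. The other O4+ groups followed at 11.28 to 11.01, with overlapping ranges, then CD11B+ cells of IL1B pups at P5 (10.74 ± 0.45), which reached the lower end of the O4+ range, and then, after a gap, the 3 remaining CD11B+ groups at 6.89 to 6.60. Icam1 had the 4 CD11B+ groups on top (11.71 to 11.01, each overlapping the next), followed without overlap by O4+ IL1B at P5 (10.35 ± 0.26) and O4+ PBS at P5 (8.31 ± 0.25), and last by the O4+ P10 groups (6.86 and 6.07), which overlapped each other on this scale. By its brighter probe, Vcam1 was highest in O4+ (13.18 ± 0.25) and CD11B+ cells (13.13 ± 0.19) of IL1B pups at P5, whose ranges overlapped each other and no other group, and was lowest in CD11B+ PBS cells at P10 (10.19 ± 0.42). The dimmer probe ordered the fractions otherwise. With it, CD11B+ IL1B cells at P5 (8.68) came before O4+ ones (8.01), though the ranges overlapped. CD11B+ IL1B cells at P10 (6.86) came before both O4+ P10 groups (6.74 and 6.28), and overlapped the former, that of IL1B. Icam2 went from 12.54 ± 0.59 in O4+ PBS cells at P5 to 11.09 ± 0.09 in CD11B+ IL1B cells at P10, and every group overlapped its neighbours. Selp was highest in CD11B+ (7.56 ± 0.54) and O4+ (6.94 ± 0.44) cells of IL1B pups at P5, which overlapped each other and no other group.

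Endothelial markers were lower after IL1B at P5, in comparisons that were not repeated within slides. In O4+ cells 11 of 15 were called lower after IL1B and none higher, with a list median of -0.89 against -0.04 over all probes, and Egfl7 (-1.51), Sox17 (-1.46) and Tek (-1.35) fell most. CD11B+ cells had 12 called lower, led by Egfl7 (-1.95), Sox17 (-1.77) and Cldn5 (-1.59), and 1 higher, Ly6c1 (2.37), which monocytes also express. Their list mean was 10.05 to 11.10 with PBS and 9.55 to 10.16 with IL1B in O4+ cells, and 9.04 to 9.67 and 8.23 to 8.93 in CD11B+ cells. Measured against that mean on each array, Darc differed between IL1B and PBS by 2.46 in O4+ and 4.86 in CD11B+ cells at P5, and Icam2 by 0.48 and 0.35. At P10 no endothelial marker was called in either fraction, and without PBS replicate 6 only Ly6c1 (1.09) was, in CD11B+ cells. Of 6 arterial markers 4 were called lower at P5 in each fraction, Gja5, a gap junction gene, most of all (-3.37 and -3.31).

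Other genes listed as products of activated endothelium were mixed. Of 25 in O4+ cells at P5, 13 were called higher and 3 lower. Among them Lrg1 rose by 2.74 on the log2 scale and Csf3 at least 3.08-fold from background. Nos3 (-1.50), Thbd (-0.80) and Vwf (-0.66) fell. CD11B+ cells at P5 had 9 called higher, led by Lrg1 (6.04), Upp1 (5.72) and Nos2 (3.07), and 3 lower, Nos3 (-1.52), Vwf (-0.98), the partner of P-selectin in Weibel-Palade bodies, and Edn1 (-0.84). List medians were 0.67 and 0.45. In PBS samples at P5, 14 of these 25 genes were called higher in CD11B+ than in O4+ cells and 5 lower, beside 21.8% and 19.8% of all probes. There 12 of 15 endothelial markers were called lower in CD11B+ cells. Which cells made these products was not tested. At P10 Ccl2 (0.86), F3 (0.76) and Ptgs2 (0.75) were called higher in O4+ cells, and Upp1 (1.88) and Csf1 (0.79) in CD11B+ cells, with none lower. Without PBS replicate 6, 6 were called higher in CD11B+ cells at P10, led by Upp1 (2.22), Lrg1 (1.31) and Csf1 (0.85), and none lower.

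Junction and transmigration molecules included Madcam1, an addressin of mucosal vessels, which was called higher at P5 in O4+ (1.21) and CD11B+ (0.71) cells. Of the 13 in the list, 2 were called lower in O4+ cells, Esam (-1.10) and Cdh5 (-0.80), and 4 in CD11B+ cells, led by Jam2 (-1.66), Esam (-1.33) and Jam3 (-1.24). List medians were -0.11 and -0.19. At P10 none was called in O4+ cells, and Jam3 (-0.87) and Jam2 (-0.72) were lower in CD11B+ cells, as they were without PBS replicate 6 (-0.95 and -0.79).

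**Figure D3:**
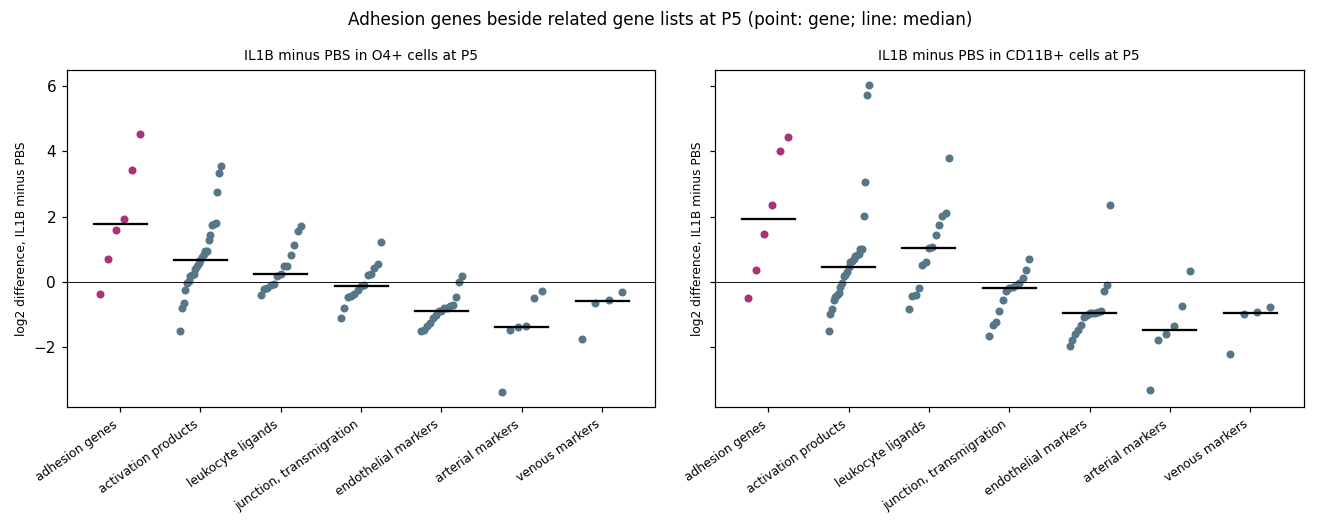
The log2 difference between IL1B and PBS at P5 (y axis) of the 6 adhesion genes (purple) and of the genes of related lists (x axis) in O4+ (left) and CD11B+ cells (right); points are genes and lines list medians. In O4+ cells Icam2 is at -0.37 and Darc at 1.61, the points of Sele and Selp rest on PBS arrays at background, and the endothelial and arterial markers have medians below 0 in both fractions.

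On the leukocyte side, 13 ligands and integrin subunits that bind these molecules were followed. In CD11B+ cells at P5, 7 were called higher and 1 lower, with a list median of 1.04 against -0.01 over all probes. Among them were Itgb7 (2.11), which pairs with Itga4 to bind VCAM-1 and MAdCAM-1, and the hyaluronan receptor Cd44 (2.02). Itgax was lower (-0.83). In O4+ cells at P5, 4 were called higher and none lower, among them the LFA-1 chains Itgb2 (1.73) and Itgal (1.13). Selplg, the gene of PSGL-1, the main ligand of P-selectin, was called in no comparison of IL1B with PBS. At P10 Itgax (2.43) and Cd24a (0.60) were called higher in O4+ cells, and Itgb7 (1.63) and Itgax (1.28) in CD11B+ cells. Without PBS replicate 6, 6 of the 13 were higher in CD11B+ cells at P10, Itgb7 (1.92), Itgal (1.53) and Itgax (1.46) among them.

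Neutrophil and monocyte markers rose with most of the adhesion genes at P5. At P10 most of these markers, some of them from background, were still called higher in O4+ cells, where Darc, Sele and Selp were not called. At P5 all 8 were called higher in each fraction, with list means of 3.99 to 4.77 on PBS and 6.06 to 9.09 on IL1B arrays in O4+ cells and of 10.03 to 10.77 and 12.90 to 13.47 in CD11B+ cells. In O4+ PBS cells at P5, Ngp and Ccr2 were not above background on any array. At P10, 6 of the 8 were called higher in O4+ cells and none in CD11B+ cells, where 1 was lower and the mean over the list differed by 0.82, or by 1.12 without PBS replicate 6. Without that array 5 of the 8 were called higher in CD11B+ cells, led by Ngp (2.07), Camp (1.86) and Mpo (1.81), and 1 lower. Of the markers called in O4+ cells at P10, Ngp, Mpo and Mmp9 were below background on every PBS array. They were above it on 4, 5 and 2 IL1B arrays. The limits from the background came to 0.95, 1.14 and 0.71-fold, so no size is given. Platelet markers, relevant to Selp, were mostly not called at P5. Of 6, none was called in CD11B+ cells at P5 and Gp9 alone (1.04) in O4+ cells, and Gp1ba was at background on all 48 arrays. The part of leukocytes in the adhesion gene results was not tested.

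**Figure D4:**
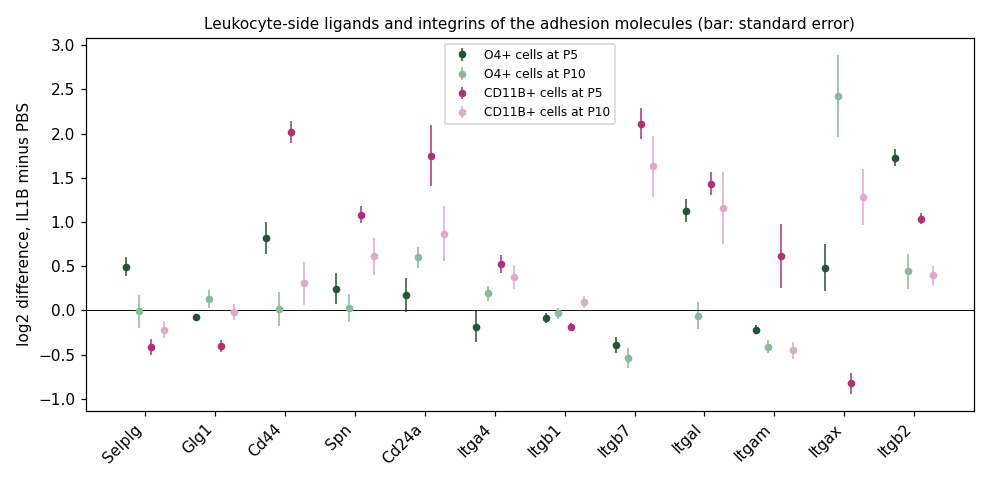
The log2 difference between IL1B and PBS (y axis) with its standard error for 12 of the 13 leukocyte ligands and integrin subunits (x axis), in O4+ and CD11B+ cells at P5 and P10. Itgax in O4+ cells at P10 is the highest point (2.43), and Itgb1 lies between -0.19 and 0.10 in the 4 comparisons.

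Of 11 NF-kappaB subunits and inhibitors, 7 were called higher in O4+ cells at P5, 3 in CD11B+ cells at P5, 4 in O4+ cells at P10 and 1 in CD11B+ cells at P10, with none lower. Bcl3, which encodes a nuclear partner of NF-kappaB, was in all of these sets, at 2.99, 1.71, 0.77 and 0.75, and it was again the 1 called in CD11B+ cells at P10 without PBS replicate 6 (0.82). Nfkb2 (1.60 and 0.76) and Relb (1.45 and 0.96), the subunits of the alternative pathway, rose at P5 in O4+ and CD11B+ cells. Tnfaip3 (1.07) and Nfkbiz (0.82) rose in O4+ cells at P10. Of all probes, 3.43% and 2.49% were called higher in O4+ cells at P5 and P10, and 4.05% and 1.09% in CD11B+ cells. Rel, called in O4+ cells at P5, was below background on every PBS array there. In PBS samples 10 of the 11 were called higher in CD11B+ than in O4+ cells at each age, beside 21.8% and 20.2% of all probes, and 1 lower at P10. Microglia markers were called higher for 8 of 10 genes in O4+ cells at P5. Their part was not tested.

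The genes whose signal most resembled that of each member over the 48 arrays were sought by Pearson's r among 25410 detected probes, as a description, since the arrays share their fraction, age and treatment. Icam1 was followed most closely by Gpr84, Bcl2a1d and Tlr2 (r = 0.995, 0.993 and 0.993). Darc resembled Prss23, Nt5e and Zbtb16 (0.961, 0.959 and 0.955), and Vcam1 resembled Cd24a, Rnd1 and Lifr (0.941, 0.937 and 0.932). Icam2 lay nearest to Dysf, Ptrf and Gpr116 (0.952, 0.947 and 0.946). Selp was most like Steap4, Pla1a and Serpina3f (0.939, 0.928 and 0.911), and Sele like Gm10851, Serpina3f and Serpina3h (0.936, 0.898 and 0.886), although both were at background on most arrays.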

How the data were processed

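RNA of 48 samples was hybridised to 1-colour Agilent mouse arrays. The authors deposited the scanner files of Agilent Feature Extraction, whose headers give grid placement version 10.7.3.1. Their intensity values (processed, mean and background median signal of each spot) were used here. The authors also deposited a matrix that holds, per the values, the linear ratio of each processed signal to its array's median, which was used as an alternative. No per-sample column was left unused (0). Log2 processed signals were taken without the 278 non-uniform spots, quantile-normalized over the 24 arrays of a fraction, or over all 48 for comparisons between fractions, and repeat spots of a probe were replaced by their mean. Saturated spots numbered 0.

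Tests used limma (version 3.58.1, under R 4.3.3), with only the groups compared in a fit and Benjamini-Hochberg adjustment over 55681 probes. A call needed an adjusted p under 0.05 and a ratio of group medians over 1.5, the latter not for differences of responses. Where a gene has several probes, the brightest stands for it. The fits were tested on simulated data. Where a probe was below background on every array of a group, a lower limit of the fold was taken against the lowest signal well above background on each array. Correlations between replicates were 0.962 or higher, and the number of arrays limits the precision. The members and all gene lists were chosen with earlier results of these data known. Named list genes are up to 3 called rises and 3 called falls per list and comparison, and others named were chosen after their values were seen. Some genes that this rule names are not reported here. Alternatives covered scaling, background correction, filters, probes, tests, blocks and leaving out each array, and scan day as a block, and list calls without CD11B+ P10 PBS replicate 6, were added after seeing the data. The P10 descriptions repeat the earlier age, so ages were taken from titles and stage.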

Additional observations from a re-analysis of the deposited data

Results flagged for a closer look

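In 8 of the 56 sets of 6 arrays (7 probes in 8 groups) the highest or lowest array lay apart from the others, beyond the value that chance exceeds in about 1 in 20 groups. In CD11B+ PBS cells the high arrays were replicate 5 at P5 (11.55) and replicate 6 at P10 (10.94) for the brighter Vcam1 probe, and replicate 2 at P5 for Sele (2.40, below background). In IL1B CD11B+ cells they were replicate 3 at P10 for Darc (6.77) and replicate 2 at P10 for Vcam1 (11.19), and replicate 3 at P5 was low for Selp (6.24). In O4+ PBS cells replicate 1 at P5 was high for Sele (1.58, below background) and replicate 5 at P10 was low for the dimmer Vcam1 probe (5.98). On the CD11B+ P5 PBS array of replicate 5 the mean over mural markers was 9.30, beside 7.49 to 8.07 on the other 5 arrays, and that over astrocyte markers 10.31, beside 7.77 to 8.77. Its means over neuronal (9.28), erythroid (5.39, others 4.33 to 4.88), venous (10.24, others 9.03 to 9.83) and oligodendrocyte lineage markers (10.28, others 9.69 to 10.11) were above those of the other 5 as well. The part of these cells in the Vcam1 value was not tested.

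Of 24 differences between responses to IL1B, 12 met the rule for a call, which is given as a description because the genes were chosen with these responses known. In O4+ cells the response at P10 minus that at P5 was -1.72 for Darc, -3.46 for Sele, -4.61 for Selp and -1.16 for Icam1. In CD11B+ cells it was -3.94 for Darc, -1.47 for Sele, -4.26 for Selp and -1.54 for Vcam1. At P5 the response in CD11B+ minus that in O4+ cells was 2.17 for Darc, -1.55 for Sele, 1.53 for Vcam1 and -1.69 for Icam1. The values of Sele and Selp rest on groups at or near background and have no exact size.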

How the results depend on the processing

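No called value changed sign (0). Under the alternatives other than leaving out an array, 749 of 812 values of single genes were kept, as were 1098 of 1152 when arrays were left out. A value counted as kept if its call stayed and, where it was not called, if it moved by less than the SD within its groups. Values that were not called could thus change sign and still count as kept. Of the 6 genes, 1 was called after IL1B in O4+ cells at P10, with 0 under normexp or slide as a block and 2 with normalization over 48 arrays, a fold from mean log2 values or no fold threshold. In CD11B+ cells at P10 the 1 call became 2 with no fold threshold and 0 with slide as a block. From P5 to P10 in PBS CD11B+ cells the 1 call became 0 with the deposited matrix, probes averaged, the methods' equal-variance test, slide as a random block or scan day as a random block, and 2 with no fold threshold. Between fractions at P10, 0 responses differed, and 1 (Sele, at background) did with 75th percentile scaling or the deposited matrix. The causes were not tested.

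With 1 array left out the count was 0 to 2 in O4+ and 0 to 1 in CD11B+ cells after IL1B at P10, 5 and 4 to 5 at P5, 2 and 0 to 1 from P5 to P10, 3 to 4 and 4 between fractions at P5 and P10, 4 and 4 for the differences by age, and 3 to 4 and 0 for those by fraction.

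With the replicate block, the CD11B+ P10 count went from 1 to 0 and no other count changed. Same-numbered samples deviated together in only 5, 4, 1 and 1 of 6 numbers (IL1B comparisons, O4+ P5 and P10, CD11B+ P5 and P10) and in 5 and 5 between fractions, and a sample correlated best with its own number in 2, 2, 0, 1, 5 and 4 of 6. The labels name 6 mice per group without tying a number to a mouse, and both fractions were isolated from the same brains in sequence, so the last values are a hint from the data that numbers pair the fractions, not from the design. Tests between fractions without the block treat such samples as independent. Probes near background (Sele, Selp) limit what can be measured at P10.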

Other observations

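Replicate 3 of the IL1B arrays at P5 was the lowest of its group for all 6 genes in O4+ and again in CD11B+ cells, although the labels tie the fractions only by number. In no other group was 1 array the lowest for more than 3 genes. Replicate 3 also had the lowest mean over neutrophil and monocyte markers, at 6.06 (others 6.82 to 9.09) in O4+ and 12.90 (13.26 to 13.47) in CD11B+ cells. The means over activation products, leukocyte ligands and NF-kappaB genes were lowest there too, while that over microglia markers was not. By the dimmer Vcam1 probe it was not the lowest in O4+ cells (8.12, others from 8.10). Over the deviations of the 24 arrays of a fraction from their group means, Icam2 followed the endothelial marker mean with r = 0.97 in O4+ cells, as a description of arrays that share groups and slides, while Darc followed it with r = 0.25. In CD11B+ cells these values were 0.82 and 0.60. Darc and Sele followed each other with r = 0.79 in O4+ and 0.60 in CD11B+ cells. Sele was above background only on P5 IL1B arrays, 6 of 6 in O4+ and 3 of 6 in CD11B+ cells, so these values rest on few arrays.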
